A study of Mus musculus with 12 samples.

Results

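The expression of 9 core genes of the Sonic hedgehog pathway was followed in the cerebellar cortex of mice on 3 diets. The genes were Shh, Hhip, Ptch1, Boc, Cdon, Smo, Gli1, Gli2 and Gli3. They were taken by symbol from the 54752 genes of the count table, and each symbol matched 1 gene. Poly(A) RNA came from 12 mice aged 12 weeks, with 4 mice on each diet. The study describes the AL and DR mice as wild-type C57BL6J/FVB F1 hybrid males, and its text does not describe the KD mice. AL mice ate ad libitum. DR mice had their daily food lowered in steps from early adulthood, were fed once a day just before dark and were killed early in the dark period without their last meal. KD mice received a ketogenic diet, for which the labels give no composition, duration or time of feeding. As described for AL and DR mice, the dissected piece held folia of the hemisphere, paravermis and vermis and left out the cerebellar nuclei. The AL and DR libraries came from animals chosen on RNA quality. Each value is therefore a mean over many cell types of this piece of cortex, and fewer cells of a type cannot be told apart from less RNA per cell.

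Sonic hedgehog is a secreted ligand. Without it the receptor Ptch1 holds the membrane protein Smo inactive and the Gli transcription factors are kept in check. When the ligand binds Ptch1, helped by the co-receptors Boc and Cdon, Smo becomes active at the primary cilium and Gli proteins switch on target genes. Gli1, Ptch1 and Hhip are themselves targets, and the last pair dampen the signal. In the cerebellum Purkinje cells make the ligand, which drives the division of granule cell precursors early in life and in the adult acts on Bergmann glia, the radial astrocytes that surround the Purkinje cells.

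All 9 genes were detected in every library. Between 31712084 and 40798644 reads were counted per library, and no pair of libraries from the same diet agreed within sampling noise, the lowest of 18 pairs having a chi-square of 4.95 per gene where sampling noise alone gives about 1. Read depth behind the 9 genes differed widely. Shh had between 85 and 147 reads per library and Hhip between 132 and 306, whereas Ptch1 had between 8497 and 12198. Levels are given as CPM (reads of a gene per 1000000 reads counted, after scaling with TMM factors), and each was averaged over 4 mice per diet with its SD. To rank the genes by level, CPM were divided by the exon length in kilobases. On AL the co-receptor Boc was highest at 26.7 ± 0.887 CPM per kilobase (SD, n = 4), followed by Ptch1 at 20.6 ± 0.524. These levels were above those of 91.2% and 87.1% of 19557 expressed genes. Cdon followed at 4.78 ± 0.629 CPM per kilobase, Gli1 at 4.40 ± 0.458 and Smo at 3.37 ± 0.142. Gli2 at 1.29 ± 0.2 CPM per kilobase and Shh at 1.08 ± 0.0784 came next, and Hhip at 0.752 ± 0.123 and Gli3 at 0.747 ± 0.0523 were lowest. The ranges of the 4 AL mice overlapped between neighbours for Cdon and Gli1, for Gli2 and Shh, and for Hhip and Gli3, so the order within these pairs is not fixed by the data. The level of Shh was above that of 29.5% of the expressed genes.

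The 2 genes that differed between diets, Hhip and Ptch1, are shown by the 250 bases before their RefSeq start sites. Both are textbook targets of Gli factors and each was called lower on DR. Whether Gli factors had a part in this was not tested. Both windows are on the minus strand of build GRCm38.p6, Hhip at chr8:80058009-80058258 and Ptch1 at chr13:63565736-63565985, and are written 5′ to 3′ with CG pairs in capitals.
Hhip: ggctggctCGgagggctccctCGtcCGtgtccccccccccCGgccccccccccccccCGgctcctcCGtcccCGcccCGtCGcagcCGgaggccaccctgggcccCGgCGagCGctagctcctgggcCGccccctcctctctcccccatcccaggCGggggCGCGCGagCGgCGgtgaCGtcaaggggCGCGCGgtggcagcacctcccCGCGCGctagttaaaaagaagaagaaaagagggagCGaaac
Ptch1: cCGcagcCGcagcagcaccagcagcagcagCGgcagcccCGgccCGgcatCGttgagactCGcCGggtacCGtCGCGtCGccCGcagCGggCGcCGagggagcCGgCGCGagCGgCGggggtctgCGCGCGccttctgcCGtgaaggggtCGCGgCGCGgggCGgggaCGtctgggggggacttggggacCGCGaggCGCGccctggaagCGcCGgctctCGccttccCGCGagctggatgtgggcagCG
The Ptch1 sequence held 41 CG pairs and the Hhip sequence 28. In the full RefSeq windows of 300 bases, which also take in the first 50 transcribed bases, 6 of the 9 genes had an entry. The CG pairs of Ptch1, 47 in number, exceeded those of 98.6% of 32851 windows, and the 30 of Hhip exceeded those of 88.3%, against a median of 7. The Gli binding motif GACCACCCA was searched on both strands. It occurred in 0.253% of all windows and in none of the 6, and neither did its 7-base core CCACCCA, which overlaps it and occurred in 9.3% of all windows. This says only that these letters are not in the windows. The annotated Ptch1 gene (chromosome 13, 63508328 to 63573598) reaches upstream of this start site, so other first exons lie outside the window.

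On DR, Hhip and Ptch1 fell relative to both other diets, whereas the ligand Shh and the co-receptors Boc and Cdon did not pass the test in any comparison. Gli1 was lower by a similar share on DR in both comparisons but missed the threshold in each. On KD none of the 9 genes differed from AL. The plot of each gene by mouse shows these values.

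**Figure D1:**
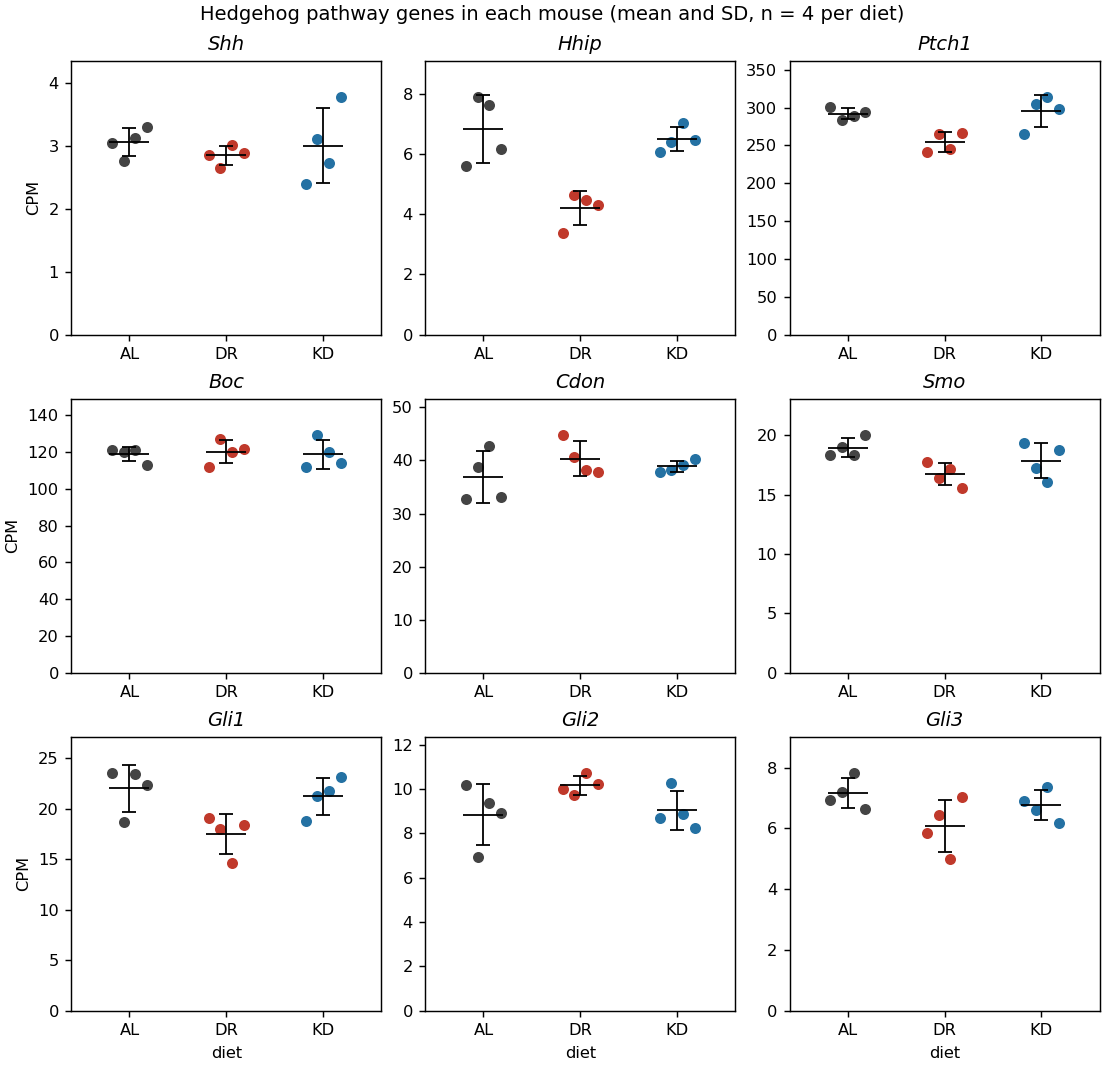
Level of each of the 9 genes in CPM (y axis, from 0) in every mouse of the AL, DR and KD diets (x axis). Coloured points are mice, and the long bar and whiskers are the mean and SD of 4 mice. The 4 DR mice lie below all AL mice for Hhip, Ptch1 and Smo, and below all KD mice for Hhip.

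Shh, the ligand, was measured at 3.06, 2.76, 3.13 and 3.30 CPM in the 4 AL mice. It was at 2.86, 2.65, 3.02 and 2.89 CPM in the DR mice and at 2.39, 3.11, 2.74 and 3.78 CPM in the KD mice. The 3 diets overlapped, and the KD mice were the most spread, with a coefficient of variation of 19.9% against 5.33% on DR. The log2 fold change of DR against AL was -0.10, with a 95% interval from -0.36 to 0.17 and an adjusted p of 0.743. A decrease of the size seen for Gli1 lies inside that interval. The Shh gene (chromosome 5, 28456815 to 28467256) shares 28.3% of its exon bases with genes on the opposite strand, 9530036O11Rik and Gm26894. The library kit did not keep strand, so reads from these bases cannot be assigned and the level of Shh is uncertain to that extent.

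Hhip encodes a membrane protein that binds hedgehog ligands and takes them away from the receptor. Its level was 5.59, 7.90, 7.63 and 6.18 CPM on AL, 3.37, 4.65, 4.49 and 4.32 CPM on DR, and 6.08, 6.39, 7.03 and 6.46 CPM on KD. Every DR mouse was below every other mouse. The mean was 38.5% lower on DR than on AL, with a log2 fold change of -0.70 ± 0.135 (SE, adjusted p = 0.0128). Against KD it was 35.4% lower, with a log2 fold change of -0.63 ± 0.111 (SE, adjusted p = 0.00371). Among the genes that fell, Hhip ranked 35 of 331 by the size of its decrease against AL and 62 of 463 against KD. The call held in all 8 fits that left out 1 library in both comparisons, with adjusted p-values up to 0.0460 against AL.

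Ptch1, the receptor, was at 300.6, 283.3, 288.6 and 294.2 CPM on AL and at 240.9, 265.1, 244.9 and 265.9 CPM on DR. The KD mice had 264.6, 305.0, 314.2 and 297.7 CPM. All DR mice were below all AL mice, while the highest DR mouse was just above the lowest KD mouse. The mean was 12.8% lower on DR than on AL (log2 fold change -0.20 ± 0.0461 SE, adjusted p = 0.0321) and 13.9% lower than on KD (log2 fold change -0.22 ± 0.0546 SE, adjusted p = 0.0310). This decrease was small among the genes that fell, ranking 299 of 331 against AL and 355 of 463 against KD. The call was not stable when 1 library was left out. Against AL it held in only 3 of 8 fits with 1 library left out and was lost without AL replicates 1, 2 or 4 or DR replicates 1 or 3, with log2 fold changes from -0.22 to -0.17 and adjusted p-values up to 0.115. Against KD it was lost without DR replicates 1 or 3 or KD replicates 2, 3 or 4, with adjusted p-values up to 0.112.

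Smo, the signal transducer that Ptch1 restrains, had 18.3, 19.0, 18.4 and 20.1 CPM on AL and 17.8, 16.4, 17.2 and 15.6 CPM on DR. The KD mice had 19.3, 17.3, 16.1 and 18.7 CPM. DR and AL mice did not overlap, but the log2 fold change of -0.18 ± 0.0653 (SE) did not pass the test (adjusted p = 0.166), and DR and KD mice overlapped.

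The co-receptors showed no such shift. Boc, an immunoglobulin-family protein at the cell surface, was at 121.4, 120.1, 121.2 and 113.1 CPM on AL, 111.8, 127.0, 120.3 and 121.8 CPM on DR, and 112.1, 129.5, 120.1 and 114.1 CPM on KD. The interval of its log2 fold change was narrow, from -0.09 to 0.12 for DR against AL, so a decrease as large as that of Ptch1 lay outside it. Cdon, its relative, had 32.7, 38.8, 42.8 and 33.1 CPM on AL and 44.9, 40.7, 38.1 and 37.7 CPM on DR. In the KD mice Cdon had 37.9, 38.3, 39.2 and 40.2 CPM, within the range of the AL mice. Its log2 fold change on DR was 0.13 ± 0.0825 (SE, adjusted p = 0.437).

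Gli1, an activator whose own gene is a standard readout of the pathway, was at 23.5, 18.7, 23.4 and 22.3 CPM on AL and at 19.0, 18.0, 14.6 and 18.3 CPM on DR. The KD mice had 18.8, 21.2, 21.7 and 23.1 CPM. AL replicate 2 lay among the DR mice, so the groups overlapped. The mean was 20.4% lower on DR than on AL (log2 fold change -0.33 ± 0.0913 SE, adjusted p = 0.0668) and 17.5% lower than on KD (log2 fold change -0.28 ± 0.0845 SE, adjusted p = 0.0726). Against AL, Gli1 did pass without a filter on low counts, with DESeq2, in a fit of all 12 libraries and without AL replicate 2, the adjusted p ranging from 0.000884 to 0.200 over all alternatives. Against KD it passed without a filter (adjusted p = 0.00559) and with DESeq2 (adjusted p = 0.0247), and in none of the 8 fits with 1 library left out. The relatives of Gli1 went in different directions without passing the test. Gli2, the main activator at the start of the signal, had 10.2, 6.94, 9.35 and 8.90 CPM on AL, 9.99, 9.73, 10.7 and 10.2 CPM on DR, and 8.70, 10.3, 8.89 and 8.24 CPM on KD. Gli2 thus had its highest mean on DR, with a log2 fold change against AL of 0.20 ± 0.105 (SE, adjusted p = 0.336). Gli3, which serves mostly as a repressor, had 6.95, 7.20, 7.83 and 6.65 CPM on AL, 5.85, 6.43, 5.0 and 7.04 CPM on DR, and 6.91, 6.62, 7.36 and 6.18 CPM on KD. Its log2 fold change was -0.24 ± 0.110 (SE, adjusted p = 0.274), and the 3 diets overlapped.

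Counted over the 9 genes, 2 fell and none rose on DR against AL, where 3.06% of 19052 genes tested were called and 1.74% were called lower. At an unadjusted p under 0.05 there were 5 of 9 (Hhip, Ptch1, Gli1, Smo and Gli3, all with lower means on DR), against 18.0% of all genes. DR and AL mice did not overlap for 3 of 9, against 10.9% of all genes. Against KD, 2 of 9 fell (4.94% of 19087 genes called, 2.43% lower), 3 of 9 had an unadjusted p under 0.05 (18.7% of all genes) and 1 of 9 did not overlap (11.8%). The median log2 fold change of the 9 genes was -0.18 against AL and -0.09 against KD, while over all genes it was 0.00361 and 0.00239. The DR mice are the same in both comparisons, so the second is no independent repeat of the first. Gli1, Ptch1 and Hhip are also among the genes that the study itself singled out from these AL and DR mice, so their direction against AL is not independent evidence either.

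The KD mice were set against AL to ask whether a ketogenic diet moves the same genes. None of the 9 was called by edgeR, none had an unadjusted p under 0.05 and none separated the 2 diets. The background was low as well. Of 19036 genes 0.0% were called, 4.87% had an unadjusted p under 0.05 and 2.96% did not overlap, while DESeq2 called 10 genes. The log2 fold changes of the 9 genes lay between -0.08 and 0.08. For Hhip the 95% interval ran from -0.31 to 0.16, for Ptch1 from -0.08 to 0.12 and for Gli1 from -0.22 to 0.12, so all 3 left out a decrease of the size measured on DR against AL. The plot of fold changes sets the 3 comparisons side by side.

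**Figure D2:**
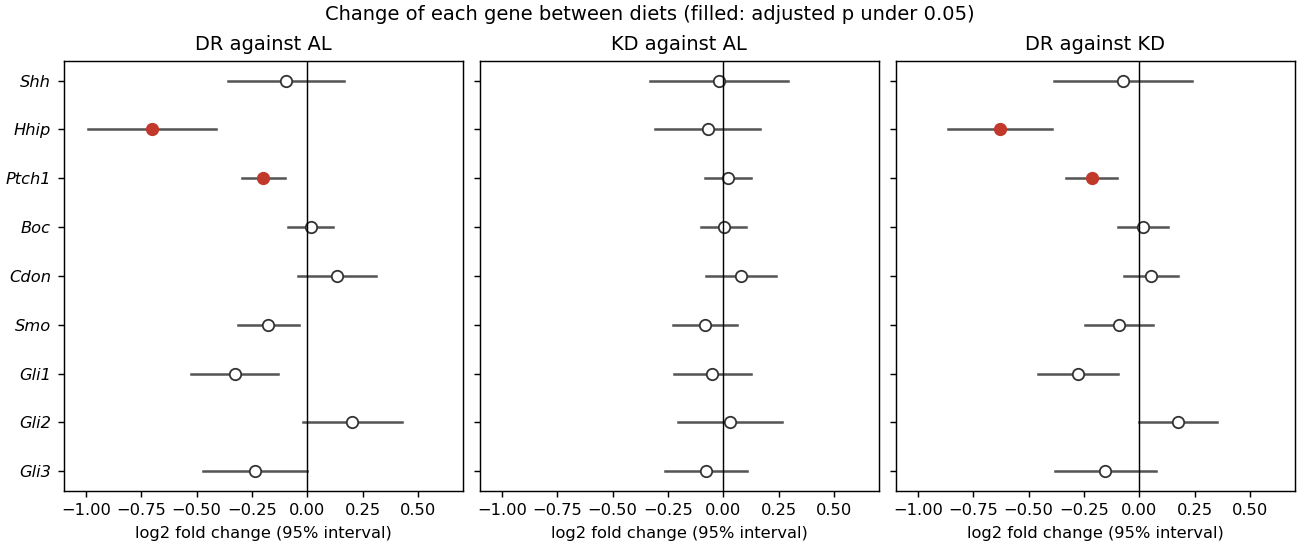
Log2 fold change (x axis) with its 95% interval (line) of each of the 9 genes (y axis) for DR against AL, KD against AL and DR against KD, from fits to 8 libraries each. Filled points have an adjusted p under 0.05 over all genes tested, which holds for Hhip and Ptch1 in both comparisons of DR and for no gene in KD against AL.

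Beyond the 9 genes, 64 further genes with a role in the pathway were listed, of which 61 had enough counts to test and Dhh, Lrp2 and Foxl1 did not. On DR against AL 1 of 61 rose and none fell, where 3.06% of all genes were called. Against KD 2 rose and 1 fell, where 4.94% of all genes were called, and KD against AL gave no call. These shares are near or below those of all genes. Their median log2 fold changes were -0.03 against AL and -0.00242 against KD. The median over all genes was 0.00361 and 0.00239.

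Among ligands and genes for their processing and release, 8 were tested and none was called in any comparison. The highest in CPM, Disp2 and Disp3, relatives of the Dispatched protein that frees the ligand, had log2 fold changes of -0.04 and 0.07 against AL. The co-receptor Gas1 had log2 fold changes of -0.18 and -0.20 that did not pass, and 19.9% of its exon bases lie under a gene on the opposite strand.

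Of 28 genes that regulate Smo or process Gli proteins, none was called on DR against AL and 1 on DR against KD. Over all genes 3.06% and 4.94% were called. Fbxw11, an F-box protein of the ubiquitin ligase that marks Gli proteins for processing, had 168.0, 190.0, 186.3 and 156.8 CPM on AL, 207.6, 195.8, 203.9 and 205.1 CPM on DR, and 165.9, 157.3, 155.8 and 171.1 CPM on KD. All DR mice were above all others. It rose against KD (log2 fold change 0.32 ± 0.0436 SE, adjusted p = 0.000547) and was just short of the threshold against AL (0.21 ± 0.0566 SE, adjusted p = 0.0571). Against AL, Fbxw11 passed with library size only, without a filter on low counts, with DESeq2 and in a fit of all 12 libraries. With 1 library left out it passed in 2 of 8 fits. The genes of this list with the highest CPM did not pass the test. Prkar1a, a regulatory subunit of the kinase that phosphorylates Gli proteins, had a log2 fold change of -0.05 against AL, and Spop, the adaptor of a ubiquitin ligase that marks Gli proteins for degradation, one of 0.12. For Spop all DR mice were above all others, and for Prkar1a all DR mice were below all KD mice. Over all genes 10.9% did not overlap between DR and AL and 11.8% between DR and KD. With DESeq2 Spop passed against AL. No gene of the primary cilium was called among 11 tested. Against AL 2 of 11 had lower means on DR, and against KD 2 of 11, beside 49.0% and 49.2% of all genes. The ciliary motor subunit Kif3a and the transport protein Ift172 had log2 fold changes of -0.05 and 0.05 against AL. Among 11 other target genes none was called, although 8 of 11 had lower means on DR than on AL and 9 of 11 lower means than on KD, where 49.0% and 49.2% of all genes did. Bcl2 and the cyclin gene Ccnd1, the highest of them in CPM not divided by length, had log2 fold changes of -0.08 and -0.07 against AL, and 23.4% of the exon bases of Ccnd1 lie under a gene on the opposite strand. Log2 fold changes of these 11 ranged from -0.30 to 0.46 against AL and from -0.53 to 0.23 against KD. Mycn and Ccnd2, named after their values were seen, fell most against KD, at -0.53 (adjusted p = 0.0571) and -0.36 (adjusted p = 0.0662). Both passed against KD without a filter on low counts and with DESeq2.

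**Figure D3:**
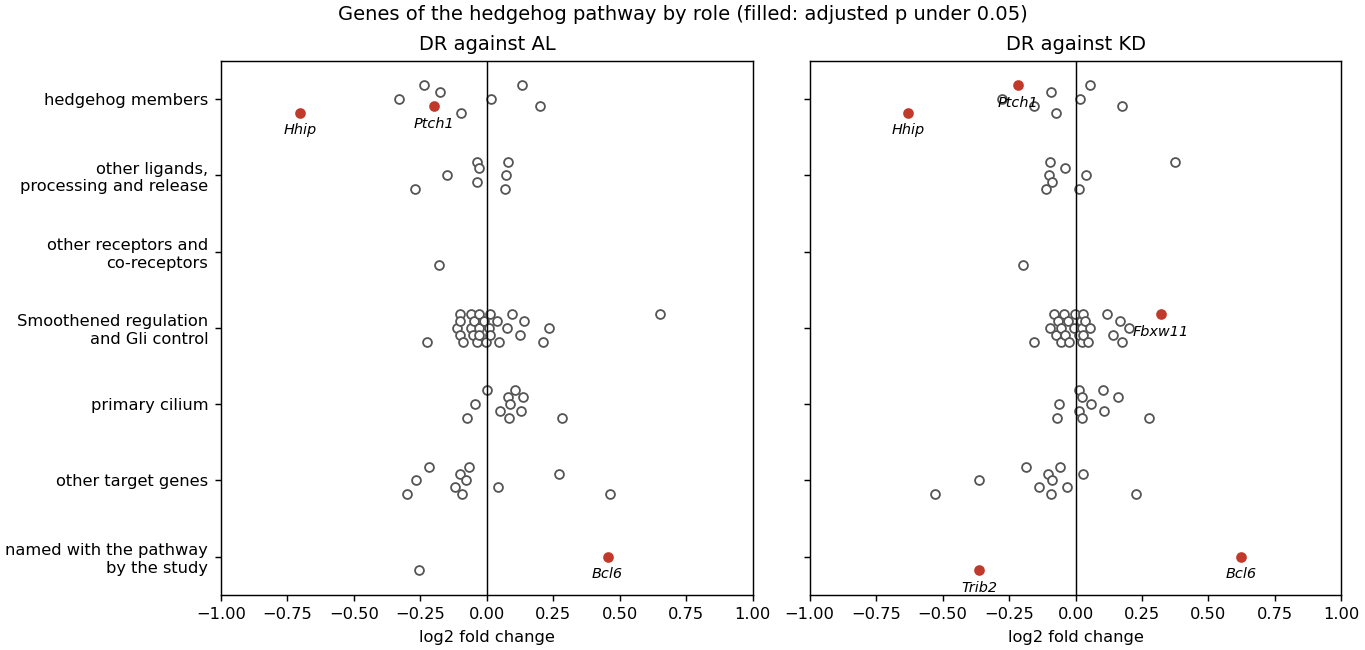
Log2 fold change (x axis) of each tested gene of the hedgehog pathway, grouped by role (y axis, points spread vertically within a role for legibility), for DR against AL (left) and DR against KD (right). Filled, named points have an adjusted p under 0.05. Apart from Hhip and Ptch1, the called genes are Bcl6 against AL and Fbxw11, Trib2 and Bcl6 against KD.

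The study names Trib2 and Bcl6 with hedgehog signaling, from the same AL and DR mice. Trib2, a pseudokinase, was at 41.5, 37.8, 35.1 and 43.0 CPM on AL, 34.2, 34.6, 30.0 and 33.1 CPM on DR, and 40.9, 42.5, 42.2 and 43.8 CPM on KD. It fell against KD (log2 fold change -0.36 ± 0.0539 SE, adjusted p = 0.00110), and against AL its log2 fold change was -0.25 ± 0.0683 (SE, adjusted p = 0.0589) with no overlap between the diets. Against AL, Trib2 passed without a filter on low counts, with DESeq2 and in a fit of all 12 libraries. With 1 library left out it passed in 1 of 8 fits. Bcl6, a transcriptional repressor that can silence Gli genes, went the other way. It had 115.6, 156.7, 143.1 and 124.5 CPM on AL, 159.7, 166.6, 217.2 and 195.8 CPM on DR, and 127.8, 120.9, 122.8 and 108.4 CPM on KD. All DR mice were above all others, and the log2 fold change was 0.45 ± 0.0987 (SE, adjusted p = 0.0234) against AL and 0.62 ± 0.0802 (SE, adjusted p = 0.000405) against KD. Against AL the call of Bcl6 held in 4 of 8 fits with 1 library left out and was lost without AL replicates 1 or 4 or DR replicates 3 or 4, with adjusted p-values up to 0.0844.

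Summed markers of the cells that make or receive the ligand were lower on DR as well. The exact permutation p-values of marker sums given here and below were not adjusted for the number of lists and comparisons. The summed level of 10 Purkinje cell markers was 7163 to 8286 CPM on DR, below the 8562 to 9124 CPM on AL and the 8405 to 8668 CPM on KD (two-sided exact permutation test, p = 0.0286 for each, the smallest that 4 against 4 mice allow). The sum rests on a few abundant genes, Itpr1 alone giving 4394 of 8742 CPM on AL without being called (adjusted p = 0.0869). Car8 and Atp2a3 fell against AL, where 1.74% of all genes were called lower, and 1 of the 10 fell against KD. Lower means on DR than on AL were found for 9 of the 10, against 49.0% of all genes, but Pcp2, Ppp1r17 and Skor2 had log2 fold changes of only -0.04, -0.07 and 0.05. The sum of 6 Bergmann glia markers was 1504 to 1598 CPM on DR, 1644 to 1780 CPM on AL and 1612 to 1757 CPM on KD (exact permutation test, p = 0.0286 for each comparison of DR). It fell by 0.14 on the log2 scale against AL, beside -0.20 for Ptch1 and -0.33 for Gli1. Most of this sum is Slc1a3, a glutamate transporter gene with 1324 of 1709 CPM on AL and a log2 fold change of -0.16 (adjusted p = 0.0749). The list was not uniform. Hopx and Fabp7 fell, with log2 fold changes against AL of -0.47 (adjusted p = 0.00143) and -0.58 (adjusted p = 0.0284), whereas Gdf10 had one of -0.08 (adjusted p = 0.471), and Timp4 and Wif1 had higher means on DR. No marker of the 2 lists was at 0. The part of these shifts in the lower Ptch1, Gli1 and Hhip was not tested.

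Of the other 10 marker lists, 2 separated a pair of diets. The sum of 6 markers of other astrocytes was 1003 to 1028 CPM on DR and 1082 to 1105 CPM on AL (exact permutation test, p = 0.0286), with Aqp4 called lower and Agt higher, and it overlapped between DR and KD. Endothelial markers, 5 in number, summed to 157.1 to 159.9 CPM on DR and 161.5 to 173.2 CPM on KD (exact permutation test, p = 0.0286) and overlapped between DR and AL. Oligodendrocyte markers overlapped, at 1545 to 1952 CPM on DR, 1555 to 1988 CPM on AL and 1766 to 1866 CPM on KD. Of these 5 markers 1, Mag, was called lower against KD (adjusted p = 0.0211), where 2.43% of all genes were. Mbp, Mog, Cnp and Mobp were not called, with log2 fold changes against KD of -0.11, -0.16, -0.05 and 0.04. Markers of oligodendrocyte precursors summed to 61.2 to 71.8 CPM on DR, 70.6 to 82.8 CPM on AL and 68.9 to 81.6 CPM on KD. The log2 ratio of the means was -0.22 against AL and -0.21 against KD, and the diets overlapped (exact permutation test, p = 0.0571 and 0.0857). Of these 5 precursor markers only Gpr17 was called. It fell in both comparisons, where 1.74% and 2.43% of all genes were called lower. Its log2 fold change was -0.53 against AL (adjusted p = 0.00725) and -0.48 against KD (adjusted p = 0.00217). The list was not uniform, and much of the lower sum is Gpr17. Its mean was 26.4 CPM on AL and 18.3 CPM on DR, where the sum had means of 77.05 and 65.96 CPM. Pdgfra, Olig1, Olig2 and Cspg4 had log2 fold changes of -0.04, -0.04, -0.06 and -0.29 against AL. Against KD they had 0.02, -0.09, -0.17 and -0.26. Mag and Gpr17 were named after their values were seen, and their part in the lower Hhip was not tested. Granule cell markers, at 4755 to 4928 CPM on DR and 4551 to 5028 CPM on AL, overlapped too. Granule cell precursor and cycling cell markers, at 11.57 to 16.6 CPM on DR and 12.79 to 14.96 CPM on AL, also overlapped, and Barhl1 supplied 12.65 of the mean of 13.77 CPM on AL, so that this sum says little of the genes of dividing cells. Atoh1, the defining gene of the precursors, was too low to test. Top2a and Mki67, genes of dividing cells, are named after their values were seen and rest on few reads. The mean of Top2a fell from 0.488 CPM in AL mice to 0.100 CPM in DR mice (adjusted p = 0.00731). With so few reads on DR, Top2a entered this test through its counts in AL mice. Against KD it was too low to test. Mki67 had means of 0.348 and 0.143 CPM in the same mice and was not called, its log2 fold change being -1.29 against AL (adjusted p = 0.156) and -1.62 against KD (adjusted p = 0.0751). No list separated KD from AL. The plot of marker lists sets these levels beside the hedgehog genes.

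**Figure D4:**
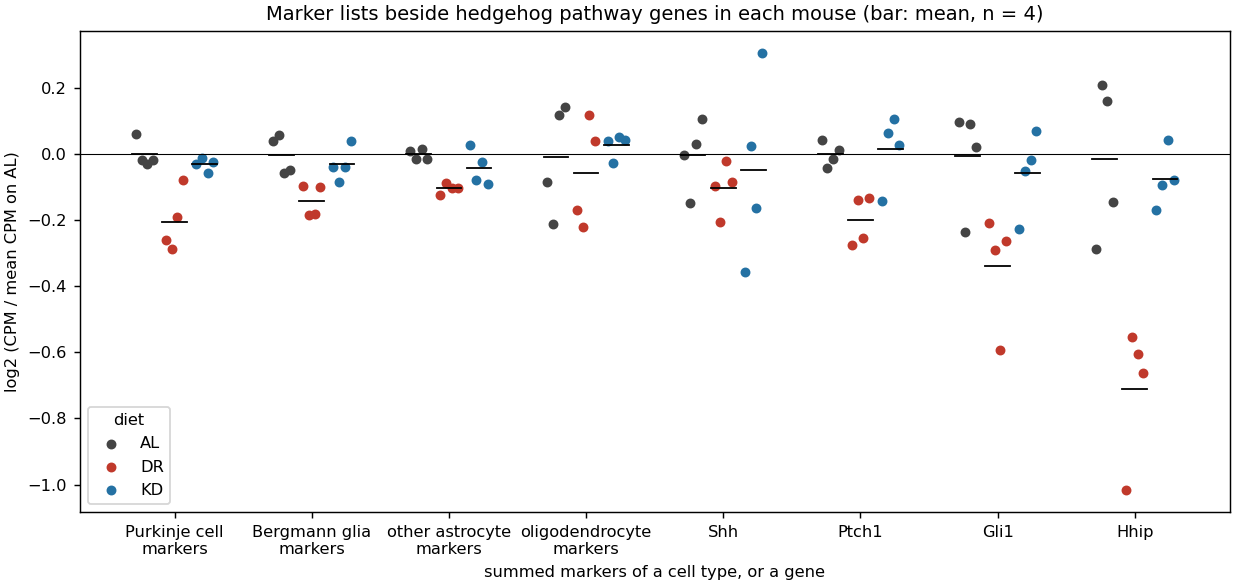
Summed level of 4 marker lists and level of Shh, Ptch1, Gli1 and Hhip in each mouse (points, coloured by diet), as log2 of the CPM over the mean CPM of the 4 AL mice (y axis). Short bars are means of 4 mice. The DR mice lie below all others for the Purkinje cell and Bergmann glia lists and for Hhip, and overlap them for oligodendrocyte markers and Shh.

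Whether the genes varied together from mouse to mouse was asked for 6 pairs over the 12 mice. Gli1 and Ptch1 had a Pearson r of 0.796 (permutation p adjusted over the 6 pairs 0.00942) and a Spearman rho of 0.664 (adjusted permutation p = 0.0916). Without the 2 mice farthest from the median of Gli1 the r was 0.713. Because both means were lowest on DR, the diet means were subtracted, which left an r of 0.523 (exact permutation within diets, p = 0.0997, adjusted p = 0.377). Ptch1 and Hhip had an r of 0.776 (adjusted permutation p = 0.00957) and a rho of 0.615 (adjusted p = 0.0916), the r being 0.55 without the 2 farthest mice and 0.216 within diets (adjusted exact p = 0.603). Neither relation passed the test within diets. No relation of Shh to a target passed the test either. Its r was 0.464 with Gli1, 0.366 with Ptch1 and 0.153 with Hhip, with adjusted permutation p-values of 0.194, 0.295 and 0.633, and its rho was 0.594, 0.406 and 0.21, with adjusted permutation p-values of 0.0916, 0.231 and 0.510. For Gli1 and Hhip the r of 0.533 and the rho of 0.448 (adjusted permutation p = 0.147 and 0.222) became -0.387 once diet means were subtracted.

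Over the same 12 mice, the genes whose log2 CPM was most like that of Gli1, of 15477 genes averaging 1 CPM or more, were Slc39a9, a zinc transporter (r = 0.929), Pcdh18, a protocadherin (0.926), Sox21, a transcription factor (0.921), Plekho2 (0.921) and Ggct (0.909). Ptch1 was 61st in that order, whereas Hhip was at rank 1421. With diet means subtracted, 4 of the 5 genes were again among the 5 most like Gli1, and with Spearman's rho 2 of 5. For Shh the most similar genes were Iqce (0.868), Asic3, an acid-sensing ion channel (0.831), Zfp507 (0.824), Uckl1 (0.817) and Gm5138 (0.806). Iqce, which encodes a ciliary protein that holds the Evc complex near Smo, also stood in the list of pathway genes. With diet means subtracted 3 of the 5 genes stayed among the 5 most like Shh, and with Spearman's rho 2 of 5. The nearest of the other 8 hedgehog genes to Shh was Gli1, at rank 598. These values describe 12 mice, many genes were compared, and mice on 1 diet share its mean.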

How the data were processed

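Per the labels and the study's methods, poly(A) RNA was prepared with the TruSeq RNA kit V2, which does not mark strand, and the authors trimmed reads with Trimmomatic 0.39, aligned them with STAR 2.7.0f to GRCm38.p6 and counted them per gene with featureCounts (Subread 1.6.4). The strand setting of the counting is not given in the sources used here. The deposited values are whole-number counts per gene, not normalized. Replicate numbers follow the order of the samples and pair no mice.

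For every comparison the 8 libraries concerned were analysed alone with edgeR 4.0.16 in R 4.3.3. Genes passed filterByExpr (minimum count 10, total 15), libraries were scaled by TMM, and p-values of the quasi-likelihood test were corrected by Benjamini-Hochberg for the number of genes tested, with a threshold of 0.05. The study used edgeR 3.32.1. The standard error is the log2 fold change over the root of the F statistic. CPM use TMM factors over all 12 libraries, and correlations use log2 CPM with a prior count of 2. The test was first run on simulated counts with known changes. Marker sums were compared by two-sided exact permutation over 70 divisions of 8 mice, without adjustment for the number of lists and comparisons. Pairs of genes were tested with 100000 random pairings, or all 13824 within diets. Promoter windows came from RefSeq (GRCm38.p6), and positions are those of the deposited table.

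The genes and lists were chosen with earlier results of these data known. A few genes were taken out of the pathway and marker lists afterwards and are not reported here. The text names the 9 genes, other pathway genes called in any comparison or named by the study, the 2 most abundant of each list, the 5 genes most like Gli1 and Shh, and markers of Purkinje cells, Bergmann glia and lists that did not overlap between 2 diets. Mycn, Ccnd2 and some further markers were named after their values were seen. Alternatives were DESeq2 1.42.0, its size factors, no scaling beyond library size, no filter, a minimum mean of 1 CPM, all 12 libraries in 1 fit and leaving out each library. As mice were separate animals, p-values reflect the spread between mice, and depth limits Shh and Hhip most.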

Additional observations from a re-analysis of the deposited data

Results flagged for a closer look

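One library stood apart for 1 gene. Boc in AL replicate 4 was at 113.1 CPM, while the other AL mice were between 120.1 and 121.4 CPM, and the gap divided by the range of the group was 0.846, above Dixon's 95% critical value for 4 samples. This was 1 of 36 groups looked at (12 genes on 3 diets), and chance gives about 1 in 20. The value lies within the range of the DR and KD mice.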

How the results depend on the processing

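Hhip was called in every alternative tried in both comparisons of DR, and Ptch1 in the 6 alternatives that kept all libraries. For DR against AL the number of genes called was 1258 without a filter and 1012 with DESeq2, against 583, and 235 to 712 with 1 library left out. Hedgehog genes called were 3, with Gli1, without a filter, with DESeq2 and with all 12 libraries in 1 fit, against 2, and 1 to 2 with 1 library left out. Other pathway genes called were 2 with library size only, 4 without a filter, 5 with DESeq2 and 3 with all 12 libraries in 1 fit, against 1, and 0 to 3 with 1 library left out. For KD against AL the genes called were 118 without a filter, 10 with DESeq2 and 0 to 6 with 1 library left out. For DR against KD they were 1503 without a filter and 467 to 946 with 1 library left out, against 942. Hedgehog genes called were 3, with Gli1, without a filter and with DESeq2, and 1 to 2 with 1 library left out, and other pathway genes were 5 without a filter and 6 with DESeq2, against 3. With library size only, the share of called genes that were higher was 57% against AL and 62.1% against KD, in place of 43.2% and 50.8%. The cause of these changes was not tested.

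No called gene named here changed direction. With 1 library left out, uncalled log2 fold changes that crossed 0 ranged from -0.0118 to 0.0525 for Boc in DR against AL. In KD against AL they ranged from -0.157 to 0.0742 for Shh, -0.0102 to 0.0678 for Ptch1, -0.124 to 0.0034 for Gli1, -0.0752 to 0.106 for Gli2, -0.16 to 0.00618 for Hhip and -0.0431 to 0.0276 for Boc, the last being -0.00032 in the fit of 12 libraries. In DR against KD they ranged from -0.17 to 0.0593 for Shh, -0.0119 to 0.0589 for Boc and -0.00203 to 0.0856 for Cdon. No paired analysis was possible because the labels give no shared replicate numbers.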
